A study of Homo sapiens with 8 samples.

Results

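The genes described here are 8 known targets of the transcription factor NRF2 (GCLC, GCLM, SLC7A11, TXNRD1, SRXN1, NQO1, HMOX1 and ME1) and the aldo-keto reductase genes AKR1C1 and AKR1C2. They were found by symbol among the 57736 Ensembl IDs of a table of RNA-seq counts. Each of the 10 genes matched 1 ID, and all 10 passed the filter on low counts that left 16657 genes for testing. All RNA came from RMG1, an established human line of ovarian clear cell carcinoma, in 4 groups of 2 libraries. ARID1A-knockout cells (made with CRISPR, labelled CAPH2 wild type) were set against wild-type cells (labelled wild type for ARID1A and CAPH2). CAPH2-knockdown cells (shCAPH2, labelled ARID1A wild type) were set against cells with a control hairpin (shControl, labelled wild type for both). ARID1A encodes a subunit of the SWI/SNF chromatin remodeller, and CAPH2 is the protein made from NCAPH2, which belongs to condensin II. The labels do not say whether the knockout cells are 1 clone or a mixture, nor whether replicate libraries came from separate cultures, so a p-value reflects the spread from library to library alone, which may be technical.

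NRF2, encoded by NFE2L2, is held at a low level by KEAP1, which presents it to a ubiquitin ligase for degradation. Oxidants and electrophiles that modify KEAP1 let NRF2 accumulate, pair with a small MAF protein and bind antioxidant response elements near its targets, while BACH1 competes for the same elements as a repressor and is itself removed when heme is abundant. The targets include enzymes that make glutathione, reduce thioredoxin, supply NADPH, reduce quinones and break down heme. AKR1C1 and AKR1C2 reduce ketosteroids, progesterone and lipid aldehydes and are among the human genes most often raised where NRF2 is active. HMOX1 is known to depend strongly on BACH1, and SLC7A11 and the glutathione breakdown enzyme CHAC1 are also known targets of the amino acid stress factor ATF4. In ovarian clear cell carcinoma, in which ARID1A is often mutated, ARID1A has been described as an activator of SLC7A11.

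Sequences upstream of the transcription start were taken from RefSeq (GRCh38.p14, a later build than the hg19 of the counts), which held a window of 250 bases before to 50 after a start for 8 of the 10 genes, with another start for TXNRD1. The stretches below are shown because they hold a match to the antioxidant response element core, TGACNNNGC on either strand, which is in capitals. Positions count from the start, with -1 the last base before it.
GCLM: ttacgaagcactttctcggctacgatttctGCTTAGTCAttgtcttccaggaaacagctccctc
TXNRD1: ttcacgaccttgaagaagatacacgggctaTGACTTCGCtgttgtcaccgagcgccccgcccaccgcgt
TXNRD1, downstream start: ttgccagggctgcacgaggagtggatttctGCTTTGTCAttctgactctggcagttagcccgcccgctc
ME1: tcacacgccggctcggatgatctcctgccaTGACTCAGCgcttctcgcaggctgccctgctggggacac

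These lie at chr1:93909431-93909494 (minus strand, GCLM), chr12:104215650-104215718 and chr12:104286900-104286968 (plus strand, TXNRD1) and chr6:83431150-83431218 (minus strand, ME1), all in GRCh38.p14. The matches begin at -34 for GCLM, -99 and -102 for TXNRD1 and its downstream start, and -137 for ME1. Further matches began at -8 in the first TXNRD1 window and at 12 in that of ME1. The AP-1 element TGANTCA, searched on both strands, was present in ME1, where it overlaps the match at -137, and in none of the other members' windows. No match to either motif was found in the windows of GCLC, NQO1, SRXN1, AKR1C1 and AKR1C2. Sequence beyond the windows was not searched, so elements further away would be missed. Of 35116 promoter windows of 300 bases in the RefSeq table, 13.3% held TGACNNNGC and 7.71% held TGANTCA.

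The promoters of AKR1C1 (chr10:4963295-4963414, plus strand) and AKR1C2 (chr10:5003858-5003981, minus strand) are shown side by side because the genes are near copies, which bears on how reads were divided between them.
AKR1C1: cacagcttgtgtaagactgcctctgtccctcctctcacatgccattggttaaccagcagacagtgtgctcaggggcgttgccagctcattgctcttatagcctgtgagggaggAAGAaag
AKR1C2: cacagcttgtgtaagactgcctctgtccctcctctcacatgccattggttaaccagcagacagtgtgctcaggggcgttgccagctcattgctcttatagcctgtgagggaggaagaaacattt

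Capitals mark the 4 bases of AKR1C1 that align to a gap in AKR1C2. Over the stretch that both windows cover, 288 of 296 aligned columns were identical (97.3%), 4 were substitutions and 4 were in gaps. The transcripts are alike as well. In GENCODE 29, 43.2% of the 50-base windows of AKR1C2 transcripts and 26.6% of those of AKR1C1 also occur in the other gene, and 16.1% of the 100-base windows of AKR1C1 occur in AKR1C2. AKR1C1 shares 1.91% of its 50-base windows with AKR1C3, the third expressed gene of the cluster. RSEM divides reads that match several genes by estimate, so the split between AKR1C1 and AKR1C2 is uncertain, and sums over the genes are given beside it. Genes that overlap the members in the annotation had few counts or no shared exon: SLC7A11-AS1, for example, had 2 counts over the 8 libraries, and the antisense gene at NQO1 had 13.

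Libraries held 24559547 to 37378691 counts each. ARID1A was at 6.66 and 5.61 CPM (counts scaled to a common library size) in knockout libraries, against 8.80 and 12.1 CPM in wild-type libraries (log2 fold change -0.77 ± 0.16 SE, edgeR adjusted p = 0.00274); a CRISPR lesion need not lower the transcript, so this is a weak check of the label. NCAPH2 was at 8.98 and 8.74 CPM in knockdown libraries, against 24.0 and 25.8 CPM in hairpin-control libraries (-1.49 ± 0.10, edgeR adjusted p = 1.84e-06). It was also lower in knockout libraries, at 21.0 and 23.9 CPM, against 26.8 and 30 CPM in wild type (-0.34 ± 0.09, edgeR adjusted p = 0.0144). Leaving out wild-type library 2 (-0.26) or knockout library 1 (-0.25) removed this call. Of the clear cell markers, 7 of 8 were matched and none was at 0. Their summed level was 2782 and 2766 CPM in knockout against 4001 and 3692 CPM in wild type, and 5490 and 5459 CPM in knockdown against 4710 and 4673 CPM in the hairpin control. SPP1, the osteopontin gene, carried most of these differences, at 827 and 803 CPM in knockout against 1952 and 1704 CPM in wild type, and at 3243 and 3198 CPM in knockdown against 2331 and 2363 CPM in the hairpin control. Without SPP1, a sum taken after its values were seen, the other 6 gave 1955 and 1963 CPM in knockout against 2050 and 1988 CPM in wild type, and 2247 and 2261 CPM in knockdown against 2380 and 2310 CPM in the hairpin control. They did not share a direction: EPCAM averaged 892 CPM in knockout and 732 CPM in wild type, and KRT7 averaged 197 CPM in knockout and 283 CPM in wild type. Fibroblast markers summed to under 1 CPM in every library and leukocyte markers to at most 5.15 CPM, with 2 of 6 genes at 0 throughout in either list. Within them, the leukocyte gene PTPRC had 82 and 76 counts in knockout libraries against 1 and 0 in wild-type libraries, and the fibroblast gene LUM had 13 and 27 counts in knockout libraries and 0 in all others. Endothelial markers did not exceed 0.124 CPM. Whether the differences in SPP1, PTPRC or LUM have a part in the results below was not tested. In bulk RNA, fewer cells expressing a gene and less of its RNA per cell cannot be told apart.

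In knockout cells the 10 genes did not move as a block. The AKR1C genes, SLC7A11, TXNRD1, NQO1 and ME1 rose, HMOX1 and GCLM fell, and GCLC and SRXN1 did not pass the test. Thus 6 genes rose and 2 fell at an adjusted p under 0.05 in edgeR's quasi-likelihood test, where 34.5% of all tested genes passed it, 16.8% higher and 17.8% lower. The median log2 fold change of the 10 genes was 0.35, beside 0.00 over all genes tested. The sizes ranged from a fall of HMOX1 to 0.444 of the wild-type level to an 8.99-fold rise of AKR1C1. The 10 genes were chosen with earlier results of these data known. Their counts and medians, here and below, describe them and test nothing about NRF2 targets as a class.

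**Figure D1:**
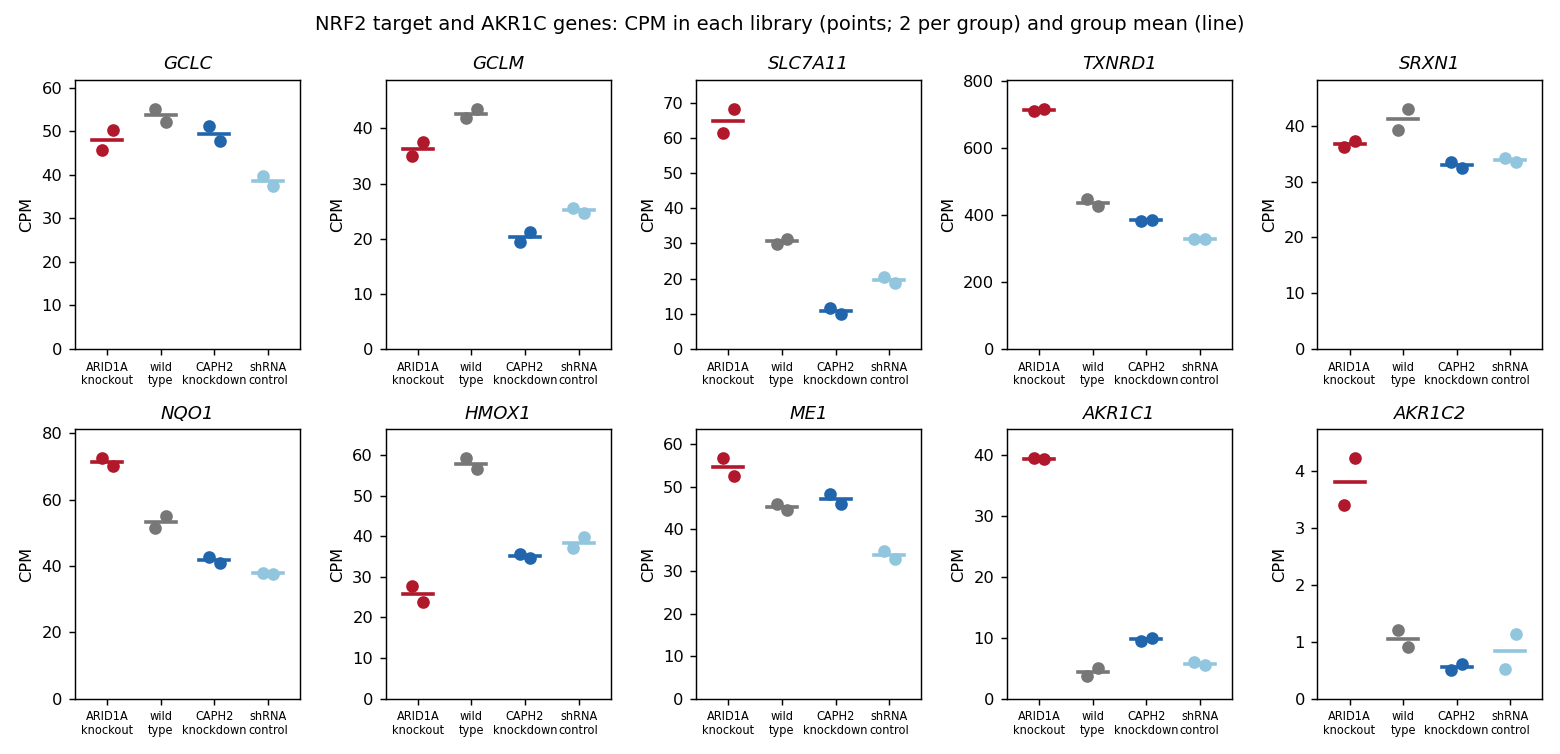
Level of each of the 10 genes, in CPM on a linear axis that starts at 0, in the libraries of ARID1A-knockout, wild-type, CAPH2-knockdown and hairpin-control cells; each point is 1 library and each line the mean of 2. AKR1C1 stands at 39.5 and 39.4 CPM in the knockout and at 10 CPM or less in every other library, and HMOX1 is lowest in the knockout.

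AKR1C1, which converts progesterone to an inactive metabolite, was at 39.5 and 39.4 CPM in knockout libraries (39.5 ± 0.0824 CPM, SD, n = 2). In wild-type libraries it was at 3.72 and 5.0 CPM (4.36 ± 0.904 CPM, SD, n = 2). Every knockout library was far above every wild-type library, a log2 fold change of 3.17 ± 0.13 SE (edgeR adjusted p = 9.10e-09). These levels rest on 1442 and 1509 counts in the knockout and 90 and 138 counts in wild type. AKR1C2, a reductase of dihydrotestosterone, had fewer counts, at 3.40 and 4.23 CPM in knockout libraries against 1.2 and 0.905 CPM in wild-type libraries. The libraries did not overlap, and AKR1C2 rose by a log2 fold change of 1.86 ± 0.36 SE (edgeR adjusted p = 0.00209), or 3.63-fold.

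AKR1C3, which makes testosterone and prostaglandin F and is no member of the 10, went the other way. It was at 24.9 and 22.2 CPM in knockout against 33.5 and 27.0 CPM in wild type (-0.36 ± 0.10, edgeR adjusted p = 0.0176), which no longer passed when wild-type library 1 (-0.20) or knockout library 2 (-0.28) was left out. AKR1C4, a liver enzyme, had 0 counts in all 8 libraries. The make-up of the cluster therefore differed. AKR1C1 took 58.2% and 59.8% of the counts of AKR1C1, AKR1C2 and AKR1C3 in knockout libraries, against 9.68% and 15.2% in wild-type libraries. AKR1C3 took 36.8% and 33.7% in the knockout and 87.2% and 82.1% in wild type. With AKR1C1 and AKR1C2 summed, a choice made after seeing the data, the log2 fold change was 2.99 ± 0.10 (edgeR adjusted p = 2.87e-09). With all 3 genes summed it was 0.91 ± 0.07 (edgeR adjusted p = 2.95e-06), AKR1C3 having the most counts of them in wild type.

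Among the glutathione genes, SLC7A11 rose while neither subunit of the synthetic enzyme did. SLC7A11, the transporter subunit that imports cystine, was at 61.3 and 68.3 CPM in knockout libraries against 29.8 and 31.3 CPM in wild-type libraries. Both knockout libraries were above both wild-type libraries, a 2.12-fold rise (log2 fold change 1.08 ± 0.09 SE, edgeR adjusted p = 2.34e-06). The 40 tested neighbours of SLC7A11 on chromosome 4 had a median log2 fold change of 0.25, which leaves SLC7A11 0.84 above them. SLC3A2, the chain that carries SLC7A11 to the membrane, went the opposite way, at 131 and 129 CPM in knockout against 214 and 224 CPM in wild type (-0.75 ± 0.05, edgeR adjusted p = 6.91e-07); it was singled out as the partner of SLC7A11.

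GCLM, the modifier subunit of glutamate-cysteine ligase, was at 35 and 37.6 CPM in knockout libraries against 41.8 and 43.6 CPM in wild-type libraries. It was lower in both knockout libraries and fell by 0.23 ± 0.07 on the log2 scale (edgeR adjusted p = 0.0265). That call was lost without wild-type library 2 (-0.20), without knockout library 1 (-0.18) and with DESeq2. GCLC, the catalytic subunit, was at 45.6 and 50.2 CPM in knockout against 55.2 and 52.1 CPM in wild type. Its libraries did not overlap, yet GCLC was not called (-0.16 ± 0.07, edgeR adjusted p = 0.105).

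TXNRD1, the cytosolic thioredoxin reductase, was at 711 and 717 CPM in knockout libraries (714 ± 4.18 CPM, SD, n = 2) against 447 and 426 CPM in wild-type libraries (436 ± 14.7 CPM, SD, n = 2). It rose 1.64-fold, by a log2 fold change of 0.71 ± 0.05 SE (edgeR adjusted p = 5.83e-07), and was the most abundant of the 10 genes per length of exon in every group. SRXN1, which repairs over-oxidised peroxiredoxins, was at 36.2 and 37.3 CPM in knockout against 39.2 and 43.1 CPM in wild type. Both knockout values were the lower ones, and SRXN1 was not called (-0.16 ± 0.07, edgeR adjusted p = 0.0883), though it was without wild-type library 1 (-0.23). SRXN1 lies where most of its neighbours were lower in the knockout. Of 28 tested neighbours near the end of chromosome 20, 85.7% had a negative log2 fold change, with a median of -0.55, and SRXN1 stood 0.38 above that median.

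NQO1, a quinone reductase, was at 72.5 and 70.2 CPM in knockout libraries against 51.5 and 55.0 CPM in wild-type libraries, a rise of 1.34-fold (log2 fold change 0.42 ± 0.06 SE, edgeR adjusted p = 0.000235). HMOX1, which opens the heme ring, moved most strongly downward. It was at 27.7 and 23.7 CPM in knockout libraries (25.7 ± 2.86 CPM, SD, n = 2) against 59.2 and 56.5 CPM in wild-type libraries (57.8 ± 1.90 CPM, SD, n = 2). No other library of the study was as low as the knockout libraries, and the log2 fold change was -1.17 ± 0.08 SE (edgeR adjusted p = 7.17e-07). ME1, the cytosolic malic enzyme that makes NADPH, was at 56.7 and 52.5 CPM in knockout libraries against 46.0 and 44.4 CPM in wild-type libraries. It rose by 0.27 ± 0.07 (edgeR adjusted p = 0.00832), a call that was lost without knockout library 1 (0.22).

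Outside chromosomes 20 and 4, the members' neighbourhoods were close to level by their medians. For GCLC, GCLM, TXNRD1, NQO1, HMOX1, ME1 and both AKR1C genes, the median knockout log2 fold change of 33 to 40 tested neighbours, AKR1C genes left out, lay between -0.08 and 0.11. AKR1C1 stood 3.25 above the median of its neighbours and HMOX1 1.10 below. Some genes close to HMOX1 fell about as far, namely TOM1 (-1.131), APOL6 (-1.150), APOL2 (-0.971) and APOL1 (-1.410). MCM5 (-0.200) and RBFOX2 (-0.090), which lie among them, fell less, and 42.5% of the 40 neighbours of HMOX1 were higher.

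**Figure D2:**
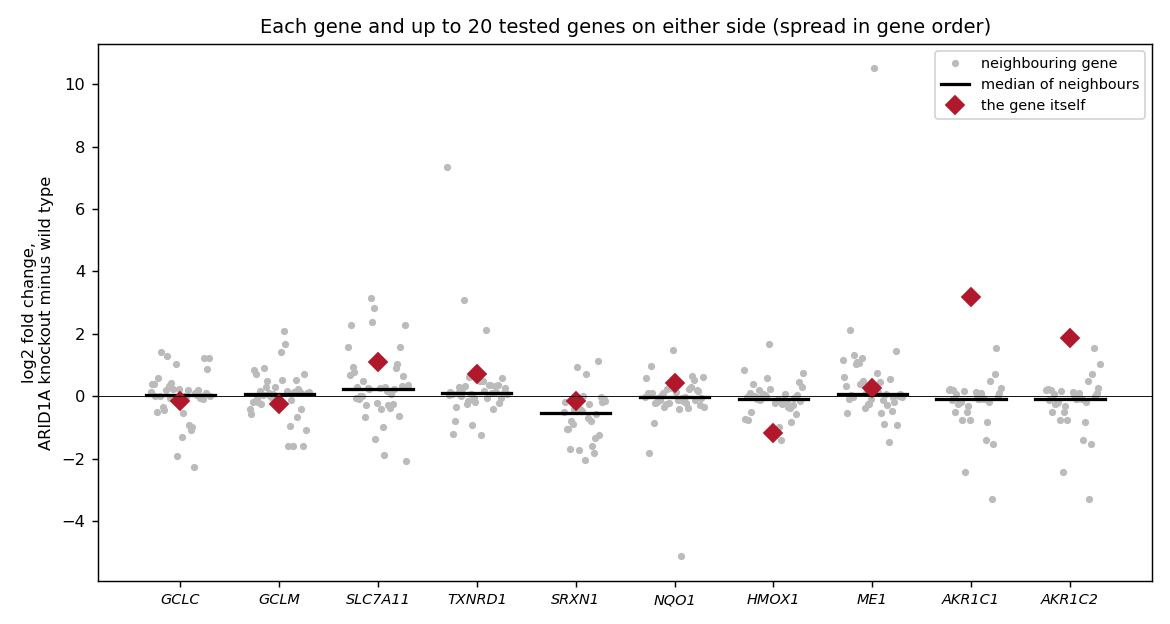
Log2 fold change, knockout minus wild type, of each of the 10 genes (diamonds) and of up to 20 tested genes on either side of it on its chromosome (dots spread in gene order), with the median of those neighbours as a bar. SRXN1 lies above a neighbour median of -0.55, and AKR1C1 stands above every gene around it.

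Among the regulators of the pathway, BACH1 fell in the knockout and NFE2L2 and KEAP1 did not pass the test. NFE2L2, the gene of NRF2 itself, was at 59.9 and 59.9 CPM in knockout against 66.3 and 64.7 CPM in wild type, a difference short of the threshold (-0.13 ± 0.06, edgeR adjusted p = 0.138), although its 40 neighbours had a median of 0.40. KEAP1 was at 22 and 23.8 CPM in knockout and 22.2 and 29.1 CPM in wild type, and these libraries overlapped (-0.16 ± 0.11, edgeR adjusted p = 0.299). Without wild-type library 1 its value was -0.35 and passed the test, and without library 2 it was 0.05. BACH1, the repressor, was at 47.0 and 42.9 CPM in knockout against 66.2 and 58.5 CPM in wild type and fell (-0.47 ± 0.07, edgeR adjusted p = 0.000505). Of 16 tested regulators, 3 rose and 2 fell, with a median of -0.01. MAFF (0.55) and DCAF11 (0.24) had the largest rises, and BTRC, part of another ubiquitin ligase of NRF2, fell most (-0.49). MAFF lost its call when wild-type library 2 (0.29) or knockout library 2 (0.49) was left out, and DCAF11 without knockout library 2 (0.17).

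Other antioxidant and detoxification genes moved in both directions in the knockout. Of 23 glutathione genes tested out of 27, 7 rose and 7 fell (median 0.10). CHAC1, which breaks glutathione down, rose (1.48 ± 0.33, edgeR adjusted p = 0.00501), as did the peroxidase gene GPX1 (0.86 ± 0.15, edgeR adjusted p = 0.00107). GPX2 (-2.16 ± 0.31, edgeR adjusted p = 0.000227) and the glutaredoxin gene GLRX (-2.01 ± 0.09, edgeR adjusted p = 3.02e-08) fell most. CHAC1 rested on 81 and 90 counts in knockout and 24 and 18 in wild type. GPX2 rested on 20 and 25 counts in knockout and 63 and 77 in wild type, and had at most 100 in any library. GLRX was at 13.0 and 11.0 CPM in knockout and 51.5 and 45.1 CPM in wild type. Of 14 thioredoxin and peroxiredoxin genes tested, 2 rose and 3 fell (median -0.03). PRDX1 (0.90) and TXN (0.40, lost without knockout library 2 at 0.35) rose, and MSRB1 (-1.11) and PRDX2 (-0.45) fell. GPX1, PRDX1, TXN and the ferritin genes have processed pseudogenes in the genome, so their counts are uncertain.

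Besides ME1, 1 gene of NADPH supply rose in the knockout. IDH1, cytosolic isocitrate dehydrogenase, was at 582 and 589 CPM in knockout libraries against 194 and 196 CPM in wild-type libraries (1.59 ± 0.05, edgeR adjusted p = 1.19e-09). Mitochondrial IDH2 fell (-0.57), and of 10 genes tested 1 rose and 4 fell (median -0.24).

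Of 10 tested heme and iron genes, 3 rose and 2 fell (median 0.03). The heme transporter gene SLC48A1 was at 37.2 and 36.4 CPM in knockout against 13.7 and 11.2 CPM in wild type (1.57 ± 0.11, edgeR adjusted p = 9.38e-07). BLVRB (0.24), ABCB6 (-0.80) and FECH (-0.43), which act in heme breakdown, porphyrin transport and heme synthesis, were also called. The BLVRB call was lost without wild-type library 2 (0.12) or either knockout library (0.27 and 0.20), and that of FECH without either wild-type library (-0.40 and -0.46) or knockout library 1 (-0.29).

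Of 8 tested aldo-keto and carbonyl reductases besides AKR1C1 and AKR1C2, 1 rose (AKR1A1, 0.30) and 3 fell, with AKR1C3 (-0.36) and AKR7A2 (-0.34, lost without knockout library 1 at -0.32) the largest falls. Of 15 other detoxification genes, 2 rose and 8 fell (median -0.28). The export pump genes ABCC3 (-1.12) and ABCC2 (-1.23) fell most, and ABCC1 (0.43) and PIR (0.39) rose. The ABCC2 call was lost without wild-type library 1 (-0.88), as was that of ABCC1 (0.34), which also failed without knockout library 1 (0.40).

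**Figure D3:**
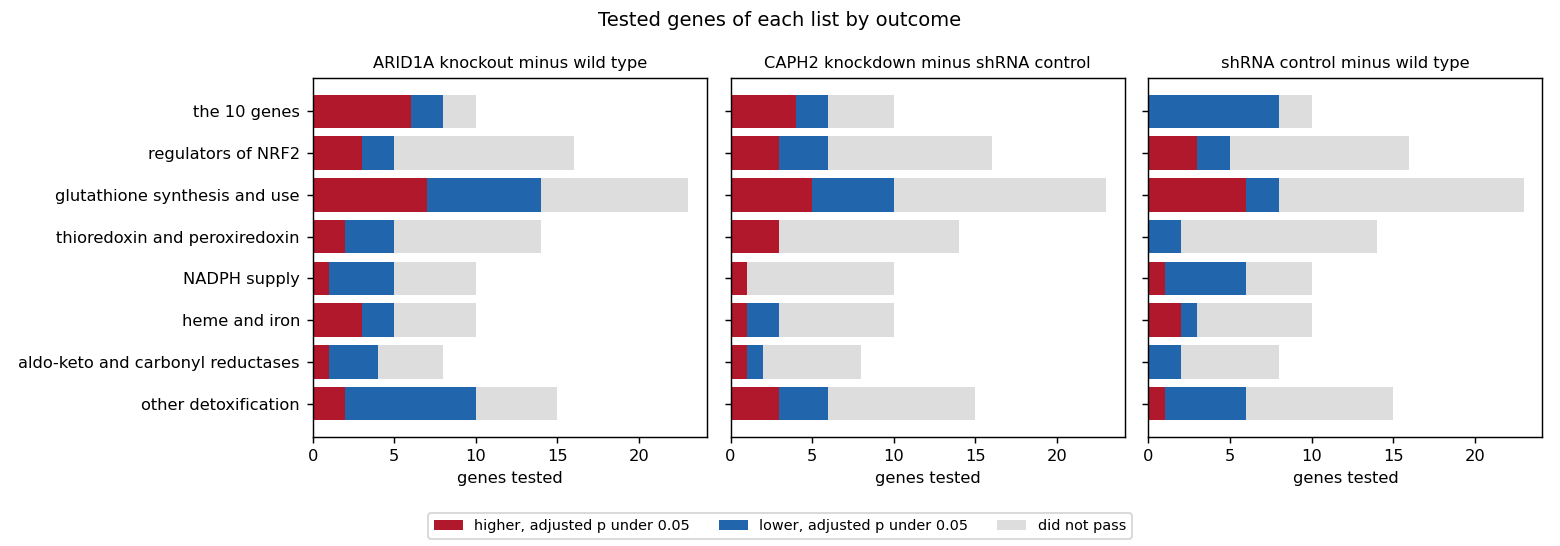
Number of tested genes of each list that were higher (red), lower (blue) or did not pass an adjusted p of 0.05 (grey) in the comparisons of ARID1A knockout with wild type, CAPH2 knockdown with hairpin control, and hairpin control with wild type. The 10 genes split into 6 higher and 2 lower, 4 higher and 2 lower, and 0 higher and 8 lower.

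In CAPH2-knockdown cells the fold changes spanned a narrower range, from -0.87 to 0.77 on the log2 scale. AKR1C1, ME1, GCLC and TXNRD1 rose, SLC7A11 and GCLM fell, and NQO1, SRXN1, HMOX1 and AKR1C2 did not pass the test. So 4 of the 10 genes rose and 2 fell, beside 15.8% of all tested genes called in this comparison, 7.62% higher and 8.22% lower. Their median log2 fold change was 0.05, against 0.00 over all genes. The largest rise was 1.70-fold for AKR1C1, and the largest fall was to 0.546 of the control level for SLC7A11. The hairpin control was itself below wild type in GCLC, TXNRD1 and ME1. In knockdown, GCLC averaged 49.4 CPM and TXNRD1 384 CPM, against 53.6 and 436 CPM in wild type. ME1 averaged 47.1 CPM in knockdown and 45.2 CPM in wild type, and AKR1C1 9.74 and 4.36 CPM. Knockdown was not tested against wild type.

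SLC7A11 was at 11.6 and 9.83 CPM in knockdown libraries (10.7 ± 1.23 CPM, SD, n = 2) against 20.5 and 18.8 CPM in hairpin-control libraries (19.6 ± 1.18 CPM, SD, n = 2). Both knockdown libraries were below every other library of the study, with a log2 fold change of -0.87 ± 0.10 SE (edgeR adjusted p = 0.000111). Here SLC3A2 moved in the same direction as SLC7A11, at 186 and 183 CPM in knockdown against 259 and 264 CPM in the hairpin control (-0.50 ± 0.05, edgeR adjusted p = 4.89e-05). GCLM was at 19.4 and 21.2 CPM in knockdown against 25.6 and 24.7 CPM in the hairpin control and fell by 0.31 ± 0.08 (edgeR adjusted p = 0.0181). GCLC was at 51.1 and 47.8 CPM in knockdown against 39.8 and 37.4 CPM in the hairpin control and rose by 0.36 ± 0.07 (edgeR adjusted p = 0.00584). The subunits of glutamate-cysteine ligase thus moved in opposite directions. The GCLM call was lost without hairpin-control library 1 (-0.29) or 2 (-0.33) and without knockdown library 1 (-0.26). The GCLC call was lost without hairpin-control library 2 (0.31) or knockdown library 1 (0.30).

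AKR1C1 was at 9.49 and 10 CPM in knockdown libraries, from 301 and 310 counts, against 6.0 and 5.45 CPM in hairpin-control libraries, from 194 and 195 counts. It rose by 0.77 ± 0.13 (edgeR adjusted p = 0.00150), and took 22.4% and 23.9% of the counts of AKR1C1, AKR1C2 and AKR1C3 in knockdown against 16.7% and 14.6% in the hairpin control. AKR1C2 was at 0.504 and 0.613 CPM in knockdown and 0.526 and 1.14 CPM in the hairpin control. These values rest on 16 and 19 against 17 and 41 counts and overlapped (-0.59 ± 0.42, edgeR adjusted p = 0.401), and without hairpin-control library 2 the sign turned (0.08). AKR1C3 was at 32.3 and 31.2 CPM in knockdown and 29.5 and 30.7 CPM in the hairpin control (edgeR adjusted p = 0.671). Summed over AKR1C1 and AKR1C2 the rise was 0.65 ± 0.11 (edgeR adjusted p = 0.00139). With AKR1C3 included it was 0.20 ± 0.08 and was not called (edgeR adjusted p = 0.103).

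ME1 was at 48.2 and 46.0 CPM in knockdown libraries against 34.9 and 32.9 CPM in hairpin-control libraries, a 1.39-fold rise (0.48 ± 0.07, edgeR adjusted p = 0.000556). TXNRD1 was at 383 and 384 CPM in knockdown against 329 and 329 CPM in the hairpin control. It rose by 0.22 ± 0.05 (edgeR adjusted p = 0.00845), though the call was lost when any of the 4 libraries was left out, with values of 0.21 to 0.22 and adjusted p of 0.0635 to 0.0812. NQO1 was at 42.6 and 41.0 CPM in knockdown and 37.9 and 37.6 CPM in the hairpin control, higher in both knockdown libraries without passing the test (0.15 ± 0.06, edgeR adjusted p = 0.148). HMOX1 was at 35.7 and 34.7 CPM in knockdown and 37.2 and 39.7 CPM in the hairpin control (-0.13 ± 0.08, edgeR adjusted p = 0.337). SRXN1 differed least, at 33.5 and 32.5 CPM in knockdown and 34.2 and 33.6 CPM in the hairpin control (-0.04 ± 0.07, edgeR adjusted p = 0.774). Of its 28 tested neighbours, 78.6% were lower in knockdown, with a median of -0.23.

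Among the regulators in knockdown cells, BACH1 was at 87.0 and 91.2 CPM in knockdown against 58.6 and 55.9 CPM in the hairpin control and rose (0.64 ± 0.07, edgeR adjusted p = 0.000113). NFE2L2 was at 61.4 and 63.2 CPM in knockdown and 53.7 and 59.0 CPM in the hairpin control (0.14 ± 0.06, edgeR adjusted p = 0.151), and KEAP1 at 23.8 and 25.4 CPM in knockdown and 24.1 and 22.9 CPM in the hairpin control (0.07 ± 0.11, edgeR adjusted p = 0.762). Neither passed the test. SQSTM1, whose protein p62 binds KEAP1, was at 129 and 135 CPM in knockdown against 200 and 213 CPM in the hairpin control (-0.64 ± 0.06, edgeR adjusted p = 3.06e-05). In all, 3 of 16 regulators rose and 3 fell (median 0.06), including MAFK (0.50) and TRIM16 (-0.80). The MAFK call was lost without hairpin-control library 1 (0.48) or knockdown library 2 (0.43), and reads of TRIM16 can be shared with its near copy TRIM16L.

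Of 23 tested glutathione genes, 5 rose and 5 fell in knockdown cells (median 0.09). GPX2 (1.21) and MGST2 (0.63) rose most, and GPX3, the secreted peroxidase, fell (-0.64, at 306 and 296 CPM in knockdown against 459 and 476 CPM in the hairpin control). The GPX2 call was lost without hairpin-control library 1 (1.00) or knockdown library 1 (1.04). In the thioredoxin list 3 of 14 rose and 0 fell (median 0.06), led by MSRB1 (0.42) and PRDX6 (0.42), and TALDO1 alone rose among 10 NADPH genes (0.17). The MSRB1 and TALDO1 calls were lost when any of the 4 libraries was left out, with values of 0.39 to 0.45 and 0.15 to 0.19. Of 10 heme and iron genes, the ferritin light chain gene FTL rose (0.26), while SLC48A1 (-0.64) and the ferritin heavy chain gene FTH1 (-0.42) fell. FTL lost its call without hairpin-control library 1 (0.20) or either knockdown library (0.27 and 0.24).

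In the reductase list 1 of 8 rose in knockdown cells, CBR1 (0.27), and 1 fell, AKR1B1 (-0.56). The CBR1 call was lost when any of the 4 libraries was left out, with values of 0.22 to 0.30. Of 15 other detoxification genes 3 rose and 3 fell (median 0.03). ALDH3A2, a fatty aldehyde dehydrogenase, was at 5.33 and 6.03 CPM in knockdown against 1.11 and 1.09 CPM in the hairpin control (2.36 ± 0.24, edgeR adjusted p = 4.94e-05). UGT1A6 also rose (0.37), in a locus whose transcripts share exons with other UGT1A genes. TRIM16L (-0.74) and ABCC3 (-0.40) fell, and the TRIM16L call was lost without hairpin-control library 1 (-0.60) or knockdown library 2 (-0.61).

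**Figure D4:**
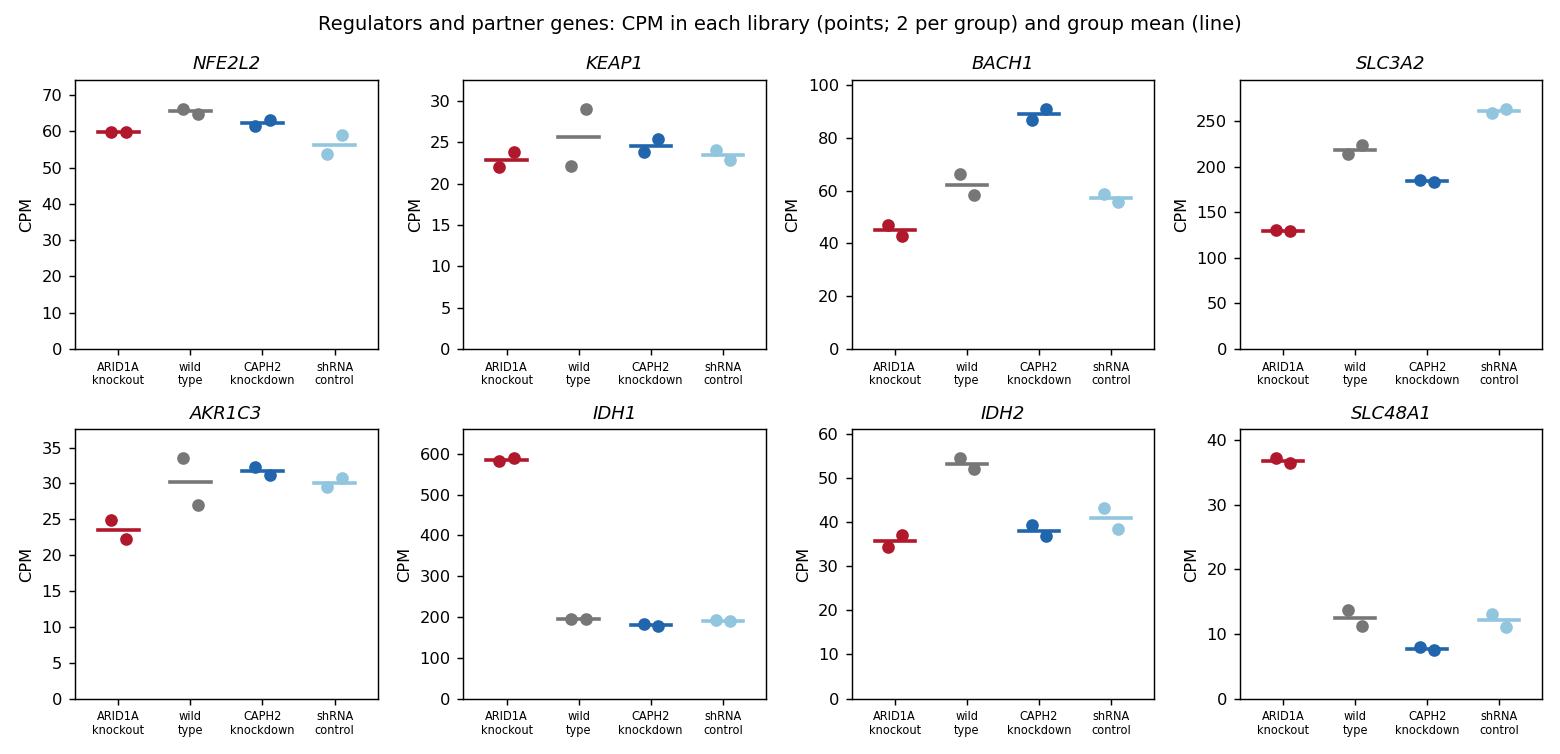
Level in CPM, on linear axes that start at 0, of regulators (NFE2L2, KEAP1, BACH1) and of genes named beside the 10 (SLC3A2, AKR1C3, IDH1, IDH2, SLC48A1) in ARID1A-knockout, wild-type, CAPH2-knockdown and hairpin-control libraries; points are libraries and lines are means of 2. BACH1 is lowest in the knockout and highest in the knockdown, and IDH1 stands at 582 and 589 CPM in the knockout alone.

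The hairpin-control and wild-type cells, both labelled wild type for ARID1A and CAPH2, differed in most of these genes. In hairpin-control cells 8 of the 10 genes were lower and 0 higher, beside 19.2% of all tested genes called, 9.13% higher and 10.1% lower. The median log2 fold change of the 10 genes was -0.45, against 0.00 over all genes. This comparison uses the same wild-type libraries as that of the knockout, and the same hairpin-control libraries as that of the knockdown, so its values are set beside theirs and not counted as separate evidence.

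GCLM fell most, to 25.6 and 24.7 CPM in hairpin-control libraries against 41.8 and 43.6 CPM in wild-type libraries (-0.77 ± 0.07, edgeR adjusted p = 5.15e-05). SLC7A11 fell to 20.5 and 18.8 CPM in hairpin-control libraries against 29.8 and 31.3 CPM in wild type (-0.64 ± 0.09, edgeR adjusted p = 0.000760). HMOX1 was next, with a log2 fold change of -0.59 ± 0.08 (edgeR adjusted p = 0.000493). NQO1 (-0.50), GCLC (-0.47), ME1 (-0.42) and TXNRD1 (-0.41) also fell, each with both hairpin-control libraries below both wild-type libraries and an edgeR adjusted p of at most 0.00165. SRXN1 fell by 0.28 ± 0.07 (edgeR adjusted p = 0.0158), with the call lost without wild-type library 2 (-0.21) or hairpin-control library 1 (-0.29) or 2 (-0.27). Its 28 tested neighbours were also mostly lower in this comparison (71.4%, median -0.20), and SRXN1 minus that median was -0.08. Neither AKR1C gene passed the test. AKR1C1 was the higher in both hairpin-control libraries without passing the test (0.38 ± 0.14, edgeR adjusted p = 0.0835), and passed it without wild-type library 2 (0.62, edgeR adjusted p = 0.0167). AKR1C2 (-0.31 ± 0.40, edgeR adjusted p = 0.641) overlapped between the groups.

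**Figure D5:**
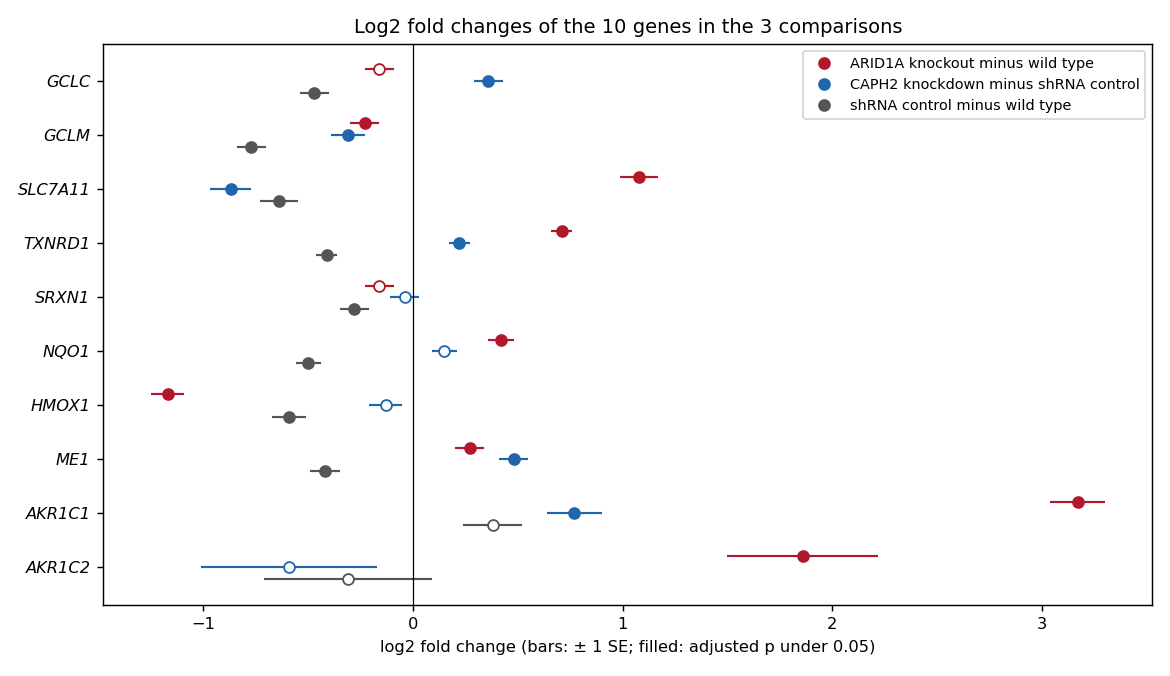
Log2 fold change with 1 SE on either side for each of the 10 genes in the comparisons of knockout with wild type, knockdown with hairpin control, and hairpin control with wild type; filled points have an adjusted p under 0.05. SLC7A11 lies at 1.08 in the knockout and -0.87 in the knockdown, and 8 of the 10 genes have a filled point below 0 for hairpin control against wild type.

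The antioxidant lists did not share a direction between hairpin-control and wild-type cells. Called glutathione genes mostly rose, while called NADPH supply and other detoxification genes mostly fell. The thioredoxin and reductase lists had 2 calls each, of 14 and 8 tested genes, beside 19.2% of all tested genes called. Those calls were falls but are too few to give either list a direction. NFE2L2 was slightly lower in hairpin-control cells (-0.22 ± 0.06, edgeR adjusted p = 0.0332; lost without wild-type library 1 at -0.20 or hairpin-control library 1 at -0.15), while BACH1 (-0.12, edgeR adjusted p = 0.297) and KEAP1 (-0.13, edgeR adjusted p = 0.483) did not pass. KEAP1 was at -0.31 and called without wild-type library 1 and at 0.08 without library 2. Of 16 regulators 3 rose and 2 fell (median -0.03), with MAFK (0.49, lost without hairpin-control library 2 at 0.46) and NFE2L1 (0.33) rising and TRIM16 falling (-0.56). Of 23 glutathione genes 6 rose and 2 fell (median 0.10). GPX1 (1.06) and GSTM3 (0.68) rose, and GPX2 (-1.13) and GGCT (-0.26) fell. The GPX2 call was lost without wild-type library 2 (-1.08) or hairpin-control library 1 (-0.92), and that of GGCT without wild-type library 1 (-0.18) or hairpin-control library 1 (-0.19).

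Of 14 thioredoxin genes 0 rose and 2 fell in hairpin-control cells (median -0.07), PRDX3 (-0.30, lost without either hairpin-control library at -0.30) and PRDX2 (-0.26, lost without hairpin-control library 2 at -0.23). The NADPH genes had 1 rise, PGD (0.39, lost without hairpin-control library 1 at 0.27), and 5 falls of 10, led by NNT (-0.71), with IDH2 next (-0.38, lost without hairpin-control library 2 at -0.31). FECH (1.01) and BLVRB (0.33) rose and HMOX2, the constitutive heme oxygenase, fell (-0.57) among 10 heme and iron genes. The BLVRB call was lost without wild-type library 2 (0.21) or either hairpin-control library (0.34 and 0.32). CBR1 (-0.43) and AKR1B1 (-0.25) were the 2 falls of 8 reductases, and AKR1B1 lost its call without either hairpin-control library (-0.19 and -0.30). Of 15 other detoxification genes 1 rose, ABCC4 (0.18), and 5 fell, led by ALDH3A2 (-1.15) and TRIM16L (-0.98). ABCC4 lost its call without wild-type library 2 (0.13) or either hairpin-control library (0.17 and 0.19), and ALDH3A2 without wild-type library 2 (-0.88) or either hairpin-control library (-1.17 and -1.14).

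The knockout and knockdown effects were compared directly, as the difference between the log2 fold change of knockout over wild type and that of knockdown over hairpin control. Of the 10 genes, 5 had the higher effect in the knockout and 2 the lower, beside 26.3% of all tested genes called, 12.3% higher and 14.0% lower. The difference was 2.45 ± 0.55 for AKR1C2 (edgeR adjusted p = 0.00678) and 2.40 ± 0.18 for AKR1C1 (edgeR adjusted p = 2.08e-06). For SLC7A11, which rose in one comparison and fell in the other, it was 1.96 ± 0.13 (edgeR adjusted p = 9.02e-07). TXNRD1 differed by 0.49 ± 0.07 (edgeR adjusted p = 0.000262) and NQO1 by 0.27 ± 0.09 (edgeR adjusted p = 0.0373). The NQO1 difference no longer passed in 7 of the 8 fits that left out a library, with values of 0.23 to 0.31, and its edgeR adjusted p was 0.0525 with the replicate number as a block.

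HMOX1 had the lower effect in the knockout by 1.04 ± 0.11 (edgeR adjusted p = 4.43e-05) and GCLC by 0.52 ± 0.10 (edgeR adjusted p = 0.00283). Effects on GCLM (0.07 ± 0.11, edgeR adjusted p = 0.664), SRXN1 (-0.13 ± 0.10, edgeR adjusted p = 0.392) and ME1 (-0.20 ± 0.10, edgeR adjusted p = 0.147) were not shown to differ. BACH1 differed by -1.11 ± 0.10 (edgeR adjusted p = 1.36e-05), having fallen in the knockout and risen in the knockdown. KEAP1 (-0.23, edgeR adjusted p = 0.333) was not shown to differ, though without wild-type library 1 the difference was -0.41 and passed.

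Scaled by exon length, the levels of the members spanned a wide range. AKR1C2 was lowest and TXNRD1 highest in every group, at 0.590 and 106 CPM per kb in knockout, 0.163 and 65.0 in wild type, 0.0864 and 57.2 in knockdown and 0.129 and 49.0 in the hairpin control. By group, NQO1 and TXNRD1 had the order knockout, wild type, knockdown and hairpin control from high to low, with no overlap between neighbouring groups. GCLM and SRXN1 ran from wild type through knockout and hairpin control to knockdown, also without overlap. The last step of SRXN1 lay between 33.6 and 33.5 CPM and was not called. HMOX1 ran from wild type through hairpin control and knockdown to knockout, likewise without overlap. How many of all tested genes separate in this way was not worked out. Steps from knockout to hairpin control or knockdown, and from wild type to knockdown, were not tested. SLC7A11 ran from knockout through wild type and hairpin control to knockdown, and AKR1C1 from knockout through knockdown and hairpin control to wild type. In GCLC the knockdown and knockout libraries overlapped, in ME1 the knockdown and wild-type libraries, and in AKR1C2 the hairpin-control libraries with those of wild type and of knockdown, which did not overlap each other.

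The genes whose pattern over the 8 libraries was most like that of AKR1C1, among 12756 genes with a mean of at least 1 CPM, were CPNE8 (Pearson r of log2 CPM 0.9954), CTSS (0.9936), PFKM (0.9928), CXCL1 (0.9910) and PRDM13 (0.9907). CXCL1, a chemokine gene, averaged 22.5 CPM in knockout, 1.83 in wild type, 4.77 in knockdown and 3.46 in the hairpin control. CTSS, a lysosomal protease gene, averaged 11.8 CPM in knockout, 1.01 in wild type, 3.20 in knockdown and 1.42 in the hairpin control. Closest to GCLM were SEPTIN11 (0.9952), EPRS1 (0.9929), URB2 (0.9906), PALS2 (0.9906) and SMC4 (0.9899). SMC4, a core subunit of condensin, averaged 446 CPM in knockout, 522 in wild type, 327 in knockdown and 373 in the hairpin control. These correlations rest on 4 groups in the same 8 libraries and describe likeness of pattern only.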

How the data were processed

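Per the labels' protocols, RNA was isolated from RMG1 cells by Trizol, DNase-digested, and sequenced from TruSeq Total RNA libraries. Expected counts for each Ensembl ID, in 1 column per library, were deposited by the authors, who used Bowtie2 and RSEM 1.2.12 on hg19, per the submitters' processing notes; which annotation and strand setting were used is not given in the sources used here. All are whole numbers, so no rounding was needed. Libraries held 24559547 to 37378691 counts, and 12.5% to 16.1% of them lay on IDs without a symbol, which were kept. TXNIP and PECAM1 matched no ID and were not analysed here.

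Low counts were removed by filterByExpr, libraries were scaled by TMM, and edgeR 4.0.16 (R 4.3.3) fitted a quasi-likelihood model with 4 group means to all 8 libraries (4 residual degrees of freedom, common biological coefficient of variation 7.74%). Benjamini-Hochberg adjustment ran over all 16657 genes, and a gene was called at an adjusted p under 0.05. Changes are log2 ratios with the fitted standard error (SE), and CPM are TMM-scaled. The procedure was tested on simulated counts. The 10 genes and the pathway lists were chosen with earlier results of these data known. From each list, the 2 largest rises and 2 largest falls among called genes with a mean of at least 1 CPM were named, besides NFE2L2, KEAP1, BACH1, AKR1C3, AKR1C4 and the targeted genes; SLC3A2 in the knockout was added after its values were seen, and 1 gene that the rule names is not reported here. Likeness used Pearson's r of log2(CPM + 1), and neighbourhoods 20 tested genes on either side in GENCODE 29 order, fewer at a chromosome end or where AKR1C genes were left out. Replicates of a group differed by 4.31 to 19.9 times the counting noise (chi-square per degree of freedom), so none was a duplicate. Alternatives were other scalings, DESeq2 1.42.0, no filter, only the 4 libraries compared, a replicate block, each library left out in turn, and summed AKR1C genes.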

Additional observations from a re-analysis of the deposited data

How the results depend on the processing

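Of 200 log2 fold changes of the 10 genes with a library left out, 174 kept direction and side of the threshold, 22 lost and 2 gained a call and 2 changed sign; of 246 under the other settings, 236 kept both, 6 lost a call and 4 changed sign. The knockout comparison, with 5751 genes called, had 3928 to 5651 genes called with a library left out. The number of the 10 genes called there was 6 to 9, beside 8 in the full fit. The knockdown comparison was less stable, with 2639 genes called in the full fit and 1360 to 1524 with a library left out. The 10 genes then gave 3 to 5 calls in place of 6 (3 without hairpin-control library 2 or knockdown library 1), and the pathway lists 16 to 21 in place of 31. Hairpin control against wild type had 3205 genes called, 1553 without hairpin-control library 1 and up to 3410 in the others, while the pathway lists gave 19 to 36 calls in place of 32. In each such fit fewer libraries set the spread.

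Signs that turned belonged to values that had not passed the test or to summed genes. In the knockout KEAP1 ran from -0.35 without wild-type library 1 to 0.05 without wild-type library 2, and the sum of AKR1C1, AKR1C2 and AKR1C3 gave 0.91 where AKR1C3 alone fell. In the knockdown AKR1C2 ran from -1.03 without hairpin-control library 1 to 0.08 without library 2, and turned to 0.65 summed with AKR1C1 and to 0.20 summed over the 3 genes. Between hairpin control and wild type, AKR1C2 ran from -0.99 without hairpin-control library 2 to 0.13 without library 1 and was 0.27 summed with AKR1C1 and 0.04 over the 3 genes, and KEAP1 ran from -0.31 to 0.08. DESeq2 dropped the calls of GCLM, BLVRB and FECH in the knockout, CBR1 in the knockdown and the NQO1 difference between effects, which was also not called without a filter (edgeR adjusted p = 0.0769). A fit of only the 4 libraries compared dropped BLVRB and FECH in the knockout and SRXN1, NFE2L2, ABCC4 and GGCT in the hairpin control. Other scalings moved the median of all genes by at most 0.023.

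The replicate numbers did not pair the libraries: nothing in the labels ties equal numbers together, and correlations of same-numbered deviations between groups lay between -0.0239 and 0.0296. With a replicate block, 5500 genes were called in the knockout, 2483 in the knockdown and 3026 in hairpin control against wild type. Among the 10 genes the block changed 1 of 40 calls, that of the NQO1 difference between effects. With 2 libraries a group, some small differences were not resolved, such as those of SRXN1 in the knockout (-0.16) and the knockdown (-0.04). AKR1C2, at 16 to 41 counts outside the knockout, is limited by depth.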
